A study of Mus musculus with 28 samples.

Results

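The genes described are 10 T cell and regulatory T cell genes of 55414 genes in the count table, and all 10 passed the filter on low counts. They were chosen by name for their roles and not by a rule on measured values, though with earlier results of these data known. They are Cd3d, Cd3e, Cd3g and Cd247, which encode the signalling subunits of the T cell receptor complex, Cd4, a coreceptor, Cd28 and Icos, which encode costimulatory receptors, Ctla4, which encodes an inhibitory receptor, Il2ra, which encodes the interleukin 2 receptor alpha chain (CD25), and Foxp3, which encodes the transcription factor that defines regulatory T cells. They were measured by RNA sequencing of whole ear skin from 28 female C57BL/6J mice of 6 to 8 weeks in 4 groups. The vehicle mice (n = 4) received acetone at both applications. The RGRN-305 mice (n = 4) received the HSP90 inhibitor RGRN-305 at 1 mg per ear and then acetone, the TPA mice (n = 10) acetone and then the phorbol ester TPA at 2.5 µg per ear, and the TPA+RGRN-305 mice (n = 10) the inhibitor and then TPA. A punch of the ear was taken 4 h after TPA, and each library holds 1 mouse. TPA activates protein kinase C and inflames the skin within hours. Whole skin holds many cell types, and in such a sample fewer cells of a type and less RNA per cell cannot be told apart.

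A T cell recognises antigen through a receptor built of an alpha and a beta chain or of a gamma and a delta chain, and the CD3 subunits carry its signal into the cell. Full activation also needs CD28, which binds CD80 and CD86 on antigen-presenting cells. CTLA-4 binds the same ligands and restrains the T cell, and ICOS binds ICOSL. Regulatory T cells, which restrain inflammation in skin, carry FOXP3 with high CTLA-4 and CD25, but activated conventional T cells also take up CTLA-4, ICOS and CD25, and CD25 is found on other leukocytes. Mouse epidermis is known for its resident T cells with gamma delta receptors.

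All values below are normalised read counts, that is, counts scaled to a common library size, unless a value is said to be per kb of counted gene length. A gene was called where its adjusted p was under 0.05 in edgeR's quasi-likelihood test, with the p-value adjusted over all 18991 genes tested. Library totals ran from 16751780 to 24716640 counts, and no libraries were near copies of each other. Structural transcripts of ear skin (keratins, collagen, cartilage) held 539622 to 614473 counts in vehicle mice and 527557 to 594977 in TPA mice. Transcripts of growing hair follicles stood over 5 times above the median in 3 libraries (TPA 3, TPA+RGRN-305 1 and TPA+RGRN-305 6), and TPA+RGRN-305 6 held almost no Xist although all mice were female. Member calls that change without these libraries are given beside the result. The numbers of mice come from the labels, and the study ran 2 independent experiments without a label saying which mouse was in which, so a difference between experiments could not be tested.

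Cd3g (chr9:44880870-44891735, minus strand of GRCm39) and Cd3d (chr9:44893083-44899173, plus strand) lie head to head with starts 1348 bases apart, and Cd3e (chr9:44910037-44920925, minus) lies beside them. Cd28 (chr1:60755959-60812518), Ctla4 (chr1:60926159-60954991) and Icos (chr1:61017086-61039479) form a row on the plus strand. Cd247 (chr1:165616250-165704846, plus), Cd4 (chr6:124841655-124874758, minus), Il2ra (chr2:11647618-11698004, plus) and Foxp3 (chrX:7439883-7461484, plus) lie apart from the others. Exons of Foxp3, Cd247 and Cd3e overlap exons of other annotated genes. Whether the counting used strand is not given in the sources used here. The study counted only unambiguous reads, so reads over shared exons may be missing from the counts of these members. RefSeq promoters (build GRCm38.p6) were found for 7 of the 10 members, each matching GRCm39 at 1 place, and not for Cd4, Cd28 and Icos. Below are the 250 bases before the RefSeq start of the members with a promoter that rose most (Ctla4 and Il2ra) and fell most (Cd247 and Cd3g) after TPA, shown so that the groups of genes that moved in opposite directions can be compared. Capitals mark motif matches, and the start follows the last base.
Ctla4 (chr1:60947934-60948183, plus strand, GRCm39): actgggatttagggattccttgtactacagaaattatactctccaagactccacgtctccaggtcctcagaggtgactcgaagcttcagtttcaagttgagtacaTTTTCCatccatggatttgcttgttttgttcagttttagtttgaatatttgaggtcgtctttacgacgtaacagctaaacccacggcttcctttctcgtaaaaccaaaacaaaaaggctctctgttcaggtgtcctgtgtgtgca
Il2ra (chr2:11647353-11647602, plus strand, GRCm39): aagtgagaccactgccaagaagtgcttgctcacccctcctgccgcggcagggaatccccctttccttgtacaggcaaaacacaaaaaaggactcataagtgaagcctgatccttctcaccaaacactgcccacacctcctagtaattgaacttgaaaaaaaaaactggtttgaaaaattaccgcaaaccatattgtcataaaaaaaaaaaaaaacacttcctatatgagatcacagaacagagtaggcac
Cd247 (chr1:165616000-165616249, plus strand, GRCm39): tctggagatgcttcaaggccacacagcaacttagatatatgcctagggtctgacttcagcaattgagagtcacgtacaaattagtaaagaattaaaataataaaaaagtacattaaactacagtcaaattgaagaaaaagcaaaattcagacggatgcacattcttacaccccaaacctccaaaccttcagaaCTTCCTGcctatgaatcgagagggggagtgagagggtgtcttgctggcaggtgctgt
Cd3g (chr9:44891730-44891979, minus strand, GRCm39): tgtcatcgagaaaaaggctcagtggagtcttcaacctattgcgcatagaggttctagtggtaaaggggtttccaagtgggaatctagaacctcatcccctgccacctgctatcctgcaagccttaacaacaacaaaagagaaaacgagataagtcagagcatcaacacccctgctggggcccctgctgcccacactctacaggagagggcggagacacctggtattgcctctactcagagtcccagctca

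Of the motifs searched on both strands, AP-1 (TGANTCA, in 6.75% of all 32851 promoter windows of this length) and RUNX (TGTGGT, 14.0%) had no match in the windows of the 7 members. The NFAT motif (GGAAAA, 20.4%) matched 145 bases before the start of Ctla4 and 141 bases before the second start of Foxp3. An ETS motif (CAGGAAG, 10.8%) matched 57 bases before the start of Cd247 and 17 bases before that of Cd3e. A TATA box (TATAAA, 12.4%) matched 32 bases before the first start of Foxp3. The motifs did not overlap each other, and a match is a description of these letters alone.

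Icos, Il2ra and Ctla4 rose most after TPA, and the 4 genes of the receptor's signalling subunits fell. Of the 10 members, 5 were higher in TPA than in vehicle mice (Icos, Il2ra, Ctla4, Foxp3 and Cd28), 4 were lower (Cd3d, Cd3e, Cd3g and Cd247) and Cd4 did not pass. Of all genes tested, 31.6% were called higher and 34.4% lower in this comparison, so that the share of members called (9 of 10) stands against 66% of all genes. Their median log2 fold change was 0.20, against -0.03 over all genes. In TPA+RGRN-305 against TPA mice, 5 members were lower (Icos, Ctla4, Il2ra, Foxp3 and Cd28) and 3 higher (Cd3g, Cd247 and Cd3e), where 32.6% of all genes were lower and 33% higher. Both comparisons share the TPA mice. The groups did not overlap after TPA for 3 members that were higher and 2 that were lower (23.8% and 23.7% of all genes), and in TPA+RGRN-305 against TPA for 3 that were lower and 1 that was higher (15.5% and 11.7%). A stricter rule also asked for more than a 2-fold change and a mean over 50 counts. It kept Icos and Il2ra after TPA (7.61% of all genes were higher and 5.34% lower by it) and with the inhibitor (4.61% lower and 2.69% higher), and in the interaction (5.49% lower and 3.97% higher), while Ctla4 missed its count limit at a mean of 43.3.

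**Figure D1:**
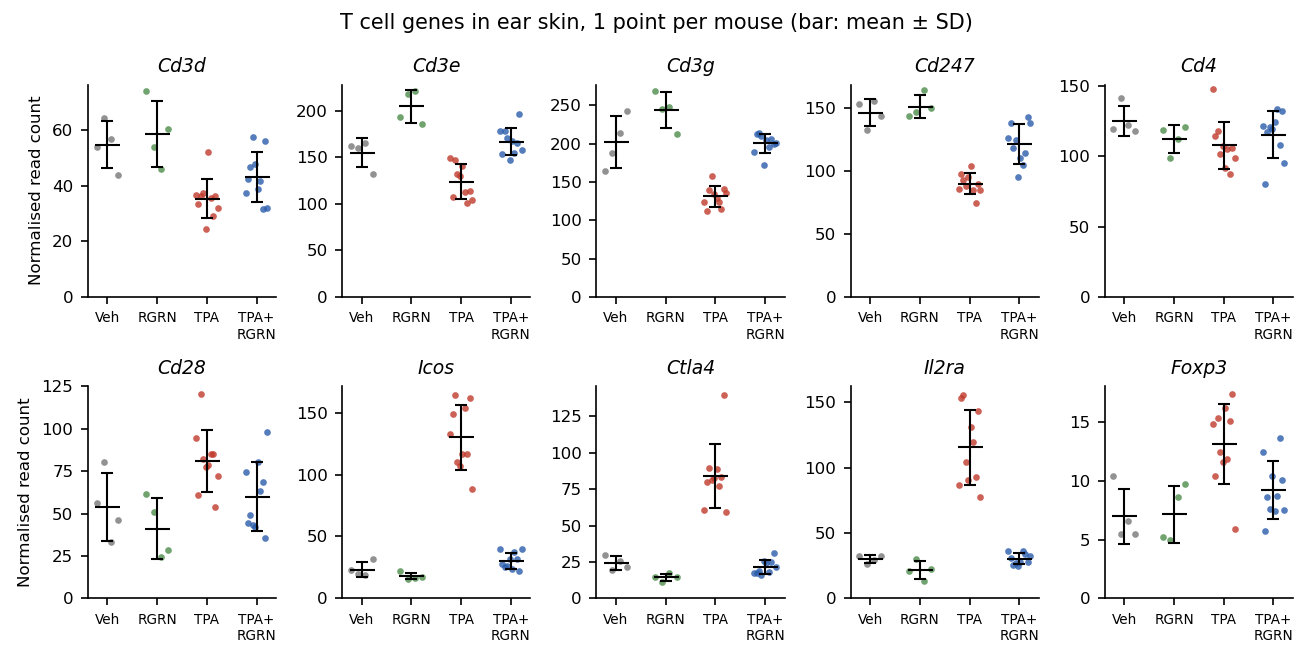
Normalised read count (y axis, from 0) of the 10 members in vehicle (Veh), RGRN-305 (RGRN), TPA and TPA+RGRN-305 mice, 1 point per mouse, with bars for mean ± SD. Icos, Ctla4 and Il2ra of all 10 TPA mice sit above every mouse of the other groups, while Cd3g and Cd247 of the TPA mice sit below all vehicle mice.

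Cd3g encodes the gamma subunit of CD3. Its vehicle mice held 164, 188, 214 and 243 counts, and the RGRN-305 mice 269, 245, 247 and 213. Among TPA mice the range was from 112 to 158 (median 132), all below the lowest vehicle mouse, and among TPA+RGRN-305 mice from 172 to 214 (median 203), all above the highest TPA mouse. Its log2 fold change was -0.62 (SE 0.09, adjusted p = 4.15e-07) for TPA against vehicle and 0.61 (SE 0.07, adjusted p = 5.69e-09) for TPA+RGRN-305 against TPA. Means were 202 ± 33.9 (SD, n = 4) in vehicle and 200.4 ± 12.6 (SD, n = 10) in TPA+RGRN-305 mice, with a log2 difference of -0.02 (SE 0.09, adjusted p = 0.926) that did not pass.

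Cd247 encodes the zeta chain, which carries most of the complex's signalling motifs. Vehicle mice held 153, 133, 156 and 144 counts and RGRN-305 mice 144, 147, 164 and 150.2. The range in TPA mice was from 74.5 to 104 (median 89.1), without overlap with either. TPA+RGRN-305 mice ranged from 95.01 to 143 (median 121), with 9 of 10 above every TPA mouse and 7 of 10 below every vehicle mouse. The level fell by 0.70 on the log2 scale after TPA (SE 0.10, adjusted p = 1.64e-07, edgeR) and was higher by 0.43 (SE 0.08, adjusted p = 1.15e-05) with the inhibitor. It was the 1 member called in TPA+RGRN-305 against vehicle, at -0.27 (SE 0.10, adjusted p = 0.0402), where 10.3% of all genes were lower and 11.7% higher, and for 0 members the groups did not overlap (4.2% and 6.58% of all genes). The stricter rule kept no member here (0.0895% of all genes were lower and 1.23% higher). That call was lost without any 1 of Vehicle 1, 3 or 4 or TPA+RGRN-305 3, 5, 6, 7 or 8 (adjusted p from 0.0511 to 0.126), and without the hair follicle libraries (adjusted p = 0.0676).

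Cd3e encodes the epsilon subunit, which pairs with both delta and gamma. Vehicle mice held 163, 159.8, 166 and 132 counts and RGRN-305 mice 193, 218, 222 and 186. With TPA alone the mice ranged from 101 to 149.6 (median 122) and TPA+RGRN-305 mice from 147 to 196 (median 166). TPA and vehicle mice overlapped through Vehicle 4 alone, and 9 of 10 TPA+RGRN-305 mice were above every TPA mouse. In edgeR the log2 fold change was -0.32 (SE 0.10, adjusted p = 0.0076) after TPA and 0.43 (SE 0.08, adjusted p = 1.76e-05) with the inhibitor.

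Cd3d encodes the delta subunit and had the lowest counts of the complex. Vehicle mice held 53.9, 64.2, 56.8 and 43.6 counts and RGRN-305 mice 73.8, 53.8, 45.9 and 60.5. Mice given TPA alone ranged from 24.5 to 52.1 (median 35.8) and TPA+RGRN-305 mice from 31.5 to 57.3 (median 42.0). TPA mouse 6 alone reached into the vehicle range. The log2 fold change after TPA was -0.62 (SE 0.17, adjusted p = 0.0016), and that of the inhibitor under TPA, 0.29 (SE 0.13, adjusted p = 0.0569), did not pass. Without TPA 6 it was 0.36 (adjusted p = 0.0150), and without TPA+RGRN-305 1, 8 or 10 the adjusted p was 0.0487, 0.0308 and 0.0310. Summed over the 4 subunits, vehicle mice held 534 to 592 counts, RGRN-305 mice 609 to 680.1, TPA mice 319 to 427 and TPA+RGRN-305 mice 461 to 596.

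Cd4 encodes the coreceptor of helper and regulatory T cells and is also transcribed in some dendritic cells. Vehicle mice held 119, 141, 122 and 118 counts and RGRN-305 mice 119, 98.6, 112 and 121. TPA mice ranged from 87.4 to 148 (median 106) and TPA+RGRN-305 mice from 80.7 to 134 (median 120.5), so that all 4 groups overlapped. Neither TPA, at -0.21 (SE 0.12, adjusted p = 0.126), nor the inhibitor under TPA, at 0.10 (SE 0.09, adjusted p = 0.371), passed. Without TPA 1, the highest TPA mouse, the first was -0.27 with an adjusted p of 0.0307. Cd8a, which encodes the coreceptor of cytotoxic T cells, had at most 5 raw counts in any library.

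Icos had the largest fold change of the members. The ICOS receptor appears on T cells after activation. Vehicle mice held 22.8, 19.6, 18.9 and 31.8 counts and RGRN-305 mice 21.8, 15.9, 16.4 and 17.6. Among TPA mice the range was from 88.5 to 164 (median 125) and among TPA+RGRN-305 mice from 22.03 to 39.6 (median 29.7). The lowest TPA mouse was above the highest of every other group. Means were 23.3 ± 5.94 (SD, n = 4) in vehicle, 130.1 ± 26.1 (SD, n = 10) in TPA and 30.4 ± 6.51 (SD, n = 10) in TPA+RGRN-305 mice. The fitted log2 change was 2.47 (SE 0.19, adjusted p = 6.91e-13) after TPA and -2.09 (SE 0.13, adjusted p = 2.47e-15) with the inhibitor under TPA.

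Ctla4 moved in the same directions as Icos. Vehicle mice held 30.1, 19.6, 25.5 and 21.8 counts and RGRN-305 mice 14.6, 10.95, 17.3 and 14.6. The range in TPA mice was from 59.0 to 139 (median 81.8), with TPA 9 far above the others, and in TPA+RGRN-305 mice from 16.2 to 31.2 (median 20.3). All TPA mice stood above all mice of the other groups. The log2 fold change was 1.78 (SE 0.20, adjusted p = 2.23e-09) after TPA and -1.95 (SE 0.14, adjusted p = 1.76e-13) with the inhibitor.

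Il2ra completes the high-affinity interleukin 2 receptor together with the products of Il2rb and Il2rg. Vehicle mice held 32.1, 26.1, 29.3 and 32.7 counts and RGRN-305 mice 20.8, 29.9, 13.0 and 22.4. With TPA alone the mice ranged from 77.9 to 155 (median 112) and TPA+RGRN-305 mice from 24.8 to 36.3 (median 29.4). Again the TPA mice did not overlap any other group. Its log2 fold change was 1.93 (SE 0.19, adjusted p = 2.36e-10) after TPA and -1.93 (SE 0.14, adjusted p = 7.27e-14) with the inhibitor, and the means of vehicle, at 30.1 ± 3.04 (SD, n = 4), and of TPA+RGRN-305, at 30.2 ± 4.22 (SD, n = 10), differed by less than their spread.

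Cd28, the constitutive costimulatory receptor, changed less and was more variable. Vehicle mice held 56.0, 80.5, 33.1 and 46.4 counts and RGRN-305 mice 61.4, 50.8, 24.2 and 28.3. Mice given TPA alone ranged from 53.6 to 120.4 (median 80.4) and TPA+RGRN-305 mice from 35.8 to 98.0 (median 56.1), and the groups overlapped. In edgeR the log2 fold change was 0.60 (SE 0.25, adjusted p = 0.0360) after TPA and -0.44 (SE 0.18, adjusted p = 0.0347) with the inhibitor. The first call was lost without Vehicle 1, 3 or 4 or TPA 1 or 3 (adjusted p up to 0.172) and without the hair follicle libraries (adjusted p = 0.0624). The second was lost without TPA 1 or 3 or TPA+RGRN-305 2, 3, 4, 5 or 9 (adjusted p up to 0.0834).

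Foxp3 was the lowest member, with 5 to 17 raw counts in every library. Vehicle mice held 10.4, 5.44, 6.62 and 5.45 normalised counts and RGRN-305 mice 5.20, 4.98, 8.65 and 9.75. TPA mice ranged from 5.90 to 17.4 (median 13.7), with 9 of 10 above every vehicle mouse and TPA 10 lowest, and TPA+RGRN-305 mice from 5.76 to 13.7 (median 8.64). The fitted log2 change was 0.91 (SE 0.28, adjusted p = 0.0049) after TPA and -0.51 (SE 0.20, adjusted p = 0.0221) with the inhibitor. The second was not called by DESeq2 (adjusted p = 0.0650).

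**Figure D2:**
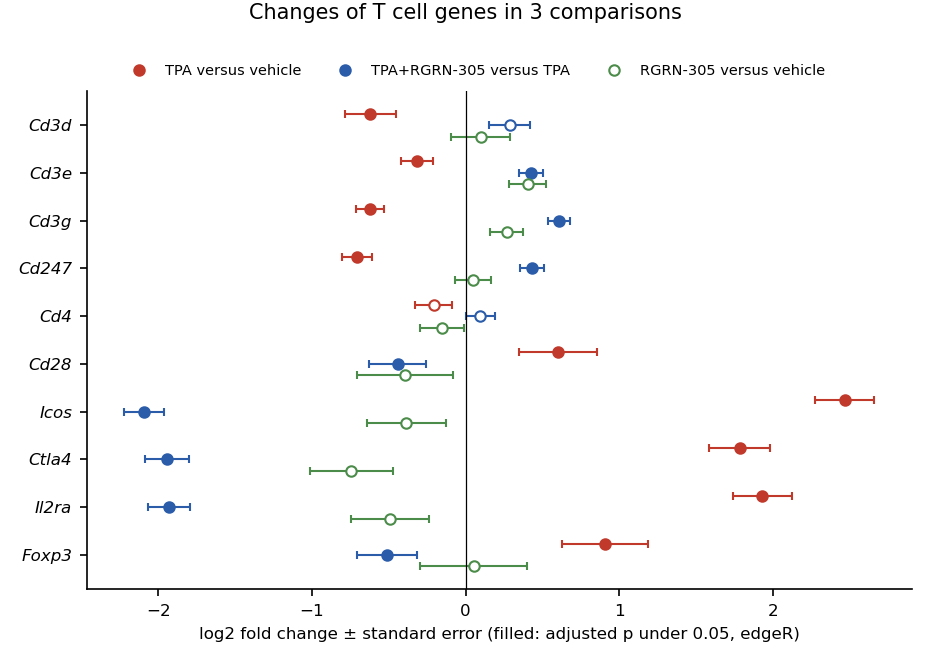
Log2 fold change ± standard error (x axis) of the 10 members (y axis) for TPA against vehicle, TPA+RGRN-305 against TPA and RGRN-305 against vehicle, with filled points at an adjusted p under 0.05 in edgeR. Icos, Ctla4 and Il2ra lie at 1.78 or more after TPA and at -1.93 or less with the inhibitor, and no point of RGRN-305 alone is filled.

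One choice of scaling moved all genes together. With library totals in place of TMM scaling, the median over all genes moved on the log2 scale by -0.29 for TPA against vehicle and by 0.26 for TPA+RGRN-305 against TPA. On that scale Cd28 was no longer called after TPA, at 0.32 (adjusted p = 0.264), nor with the inhibitor, at -0.19 (adjusted p = 0.361). Foxp3 was not called with the inhibitor (-0.26, adjusted p = 0.240). Cd4 became lower after TPA, at -0.49 (adjusted p = 0.0011), and higher with the inhibitor, at 0.35 (adjusted p = 0.0022), and Cd3d was called higher with the inhibitor, at 0.54 (adjusted p = 5.15e-04). Icos, Ctla4, Il2ra, Cd3g, Cd247 and Cd3e kept their directions and calls in both comparisons.

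Ratios within a library do not depend on that scaling. Counts per kb of the other members were divided by the mean count per kb of Cd3d, Cd3e and Cd3g in the same mouse. Icos per CD3 was 0.157 ± 0.0421 in vehicle, 0.0999 ± 0.0113 in RGRN-305, 1.28 ± 0.279 in TPA and 0.214 ± 0.0563 in TPA+RGRN-305 mice (mean ± SD). Ctla4 per CD3 was 0.242 ± 0.0577, 0.118 ± 0.0238, 1.21 ± 0.321 and 0.221 ± 0.0495 in the same order of groups. For both genes the lowest TPA mouse was above every mouse of the other groups. Il2ra per CD3 was 0.122 ± 0.0171 in vehicle and 0.677 ± 0.176 in TPA mice, and Foxp3 per CD3 was 0.0357 ± 0.0142 and 0.0955 ± 0.0239. Cd4 per CD3 was 0.718 ± 0.0629 in vehicle, 0.536 ± 0.0668 in RGRN-305, 0.897 ± 0.143 in TPA and 0.683 ± 0.0984 in TPA+RGRN-305 mice. The ratio of Cd247 to CD3 went from 0.637 ± 0.0648 in vehicle to 0.566 ± 0.0591 in TPA mice. These ratios combine rising and falling genes and were not tested.

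**Figure D3:**
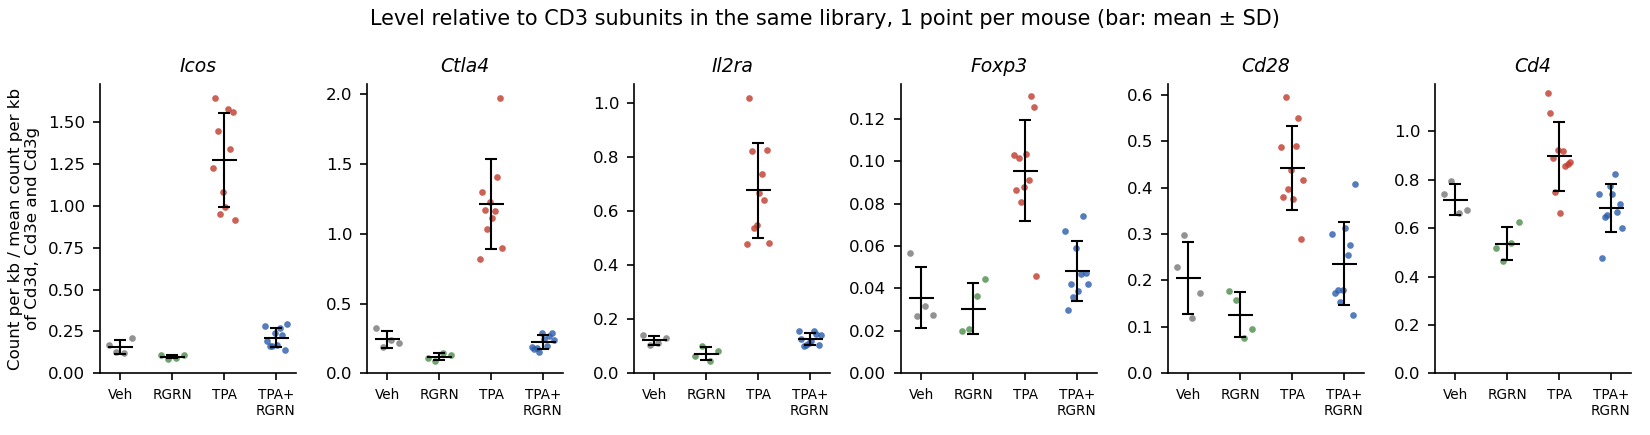
Count per kb of 6 members divided by the mean count per kb of Cd3d, Cd3e and Cd3g in the same library (y axis, from 0), 1 point per mouse in each of 4 groups, with bars for mean ± SD. Icos, Ctla4 and Il2ra relative to CD3 are higher in each TPA mouse than in any mouse of the other groups, and Cd4 overlaps between vehicle and TPA mice.

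Per kb, the order of the members changed with TPA. In vehicle mice it ran Cd3g (61.8 ± 10.4, mean ± SD), Cd3e (38.0 ± 3.83), Cd4 (31.1 ± 2.70), Cd3d (30.1 ± 4.68), Cd247 (27.5 ± 2.00), Ctla4 (10.4 ± 1.97), Cd28 (8.82 ± 3.27), Icos (6.79 ± 1.73), Il2ra (5.27 ± 0.532) and Foxp3 (1.52 ± 0.510). Of neighbours in this order, Cd4 and Cd3d, Cd3d and Cd247, Ctla4 and Cd28, Cd28 and Icos, and Icos and Il2ra differed by less than the larger SD of the pair. In TPA mice Icos (37.9 ± 7.61) and Ctla4 (36.1 ± 9.48) stood beside Cd3g (40.2 ± 4.17), within 1 SD of it, and above Cd3e (30.4 ± 4.50) by less than 1 SD of their own. Foxp3 was the lowest in every group, at 2.87 ± 0.742 per kb in TPA mice.

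RGRN-305 alone changed no member past the test. The smallest adjusted p was 0.406, and edgeR called 0% of all genes, with 1810 of 18991 genes under 0.05 before adjustment (DESeq2 called 19 genes and no member). At an unadjusted p under 0.05 stood 3 members: Cd3e, with a log2 difference of 0.40, Ctla4, with -0.74, and Cd3g, with 0.27. All 4 RGRN-305 mice were above all vehicle mice for Cd3e and below them for Ctla4, where 2.37% of all genes were higher and 2.81% lower without overlap.

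The change after TPA was also measured among mice that had the inhibitor. In TPA+RGRN-305 against RGRN-305 mice, Icos was higher at 0.76 (SE 0.21, adjusted p = 0.0135), and Cd247 (-0.32), Cd3e (-0.30) and Cd3g (-0.28) were lower, with adjusted p of 0.0224, 0.0410 and 0.0302 in edgeR. Of all genes 8.72% were higher and 5.33% lower (0.811% and 0.0474% by the stricter rule, which kept no member). Icos and Cd247 did not overlap between these groups (3.53% of all genes were higher and 1.7% lower without overlap). Without RGRN-305 3 only 1 member was called, without RGRN-305 1 or TPA+RGRN-305 5 there were 2, and with no filter on low counts there was 1. The rise of Icos was lost without RGRN-305 3 (adjusted p = 0.0505), as was the fall of Cd247 (0.0985). The call of Cd3g was lost without RGRN-305 1, 2 or 3 or TPA+RGRN-305 5 and without the hair follicle libraries (adjusted p = 0.0523), and that of Cd3e without RGRN-305 1, 2 or 3 or TPA+RGRN-305 2, 5, 7, 8 or 10.

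Whether the TPA change differed with the inhibitor was tested by the interaction. It was called for 5 members, 3 lower and 2 higher, where 25% of all genes were lower and 25.8% higher. Icos had an interaction of -1.71 (SE 0.29, adjusted p = 1.16e-05), Il2ra of -1.43 (SE 0.29, adjusted p = 1.24e-04) and Ctla4 of -1.20 (SE 0.31, adjusted p = 0.0017). Cd247 had 0.38 (SE 0.14, adjusted p = 0.0216) and Cd3g 0.34 (SE 0.13, adjusted p = 0.0265). The call of Cd3g was lost without Vehicle 3 (adjusted p = 0.0589), Vehicle 4 (0.126) or RGRN-305 4 (0.0814), and that of Cd247 without Vehicle 3 (0.0512). The interactions of Foxp3 (-0.56), Cd28 (-0.05), Cd4, Cd3d and Cd3e did not pass, so a difference between the 2 TPA changes was not shown for these genes.

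The chains of the T cell receptor itself were compared with the CD3 subunits. None of the 8 constant region genes in the table were called higher after TPA and 3 were lower, all gamma chain genes, with Trgc1 at -0.40 (SE 0.13, adjusted p = 0.0066), Trgc2 at -0.68 (SE 0.29, adjusted p = 0.0394) and Trgc4 at -0.83 (SE 0.27, adjusted p = 0.0068). The same 3 were called higher with the inhibitor, at 0.30, 0.64 and 0.88. Over all genes 34.4% were lower after TPA and 33% higher with the inhibitor. Only uniquely aligned, unambiguous reads were counted, so reads alike between gamma chain genes may have been dropped. The call of Trgc2 after TPA was lost in 8 of the fits without 1 library. These left out Vehicle 1, 2 or 3 or TPA 1, 2, 5, 6 or 8. The median of the 8 genes was 0.03 after TPA, against -0.03 over all genes.

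The alpha chain gene Trac held from 9.79 to 18.7 (median 14.4) counts in vehicle and from 7.08 to 35.8 (median 19.4) in TPA mice. Trbc1 had a log2 fold change of 0.11 (SE 0.13, adjusted p = 0.461) and Trbc2 of -0.03 (SE 0.13, adjusted p = 0.844) after TPA, neither past the test. Trdc, the delta chain gene, named after its values were seen, held from 249.9 to 304 (median 286) counts in vehicle and from 126 to 376 (median 318) in TPA mice and did not pass, at 0.09 (SE 0.16, adjusted p = 0.641). Per kb in vehicle mice the delta chain stood at 72.8 ± 6.19 and the alpha chain at 15.3 ± 4.15. The beta chain genes Trbc1 and Trbc2 stood above both, at 101.8 ± 11.6 and 201.6 ± 19.6. The gamma chain genes Trgc1, Trgc2 and Trgc4 stood at 123.6 ± 8.94, 45.1 ± 5.88 and 22.8 ± 7.51. The receptor constant regions other than the gamma chains did not fall with the CD3 subunits past the test, with the limit that library totals would give Trbc2 -0.32 (adjusted p = 0.0198) after TPA and turn the sign of Trbc1 and Trdc.

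**Figure D4:**
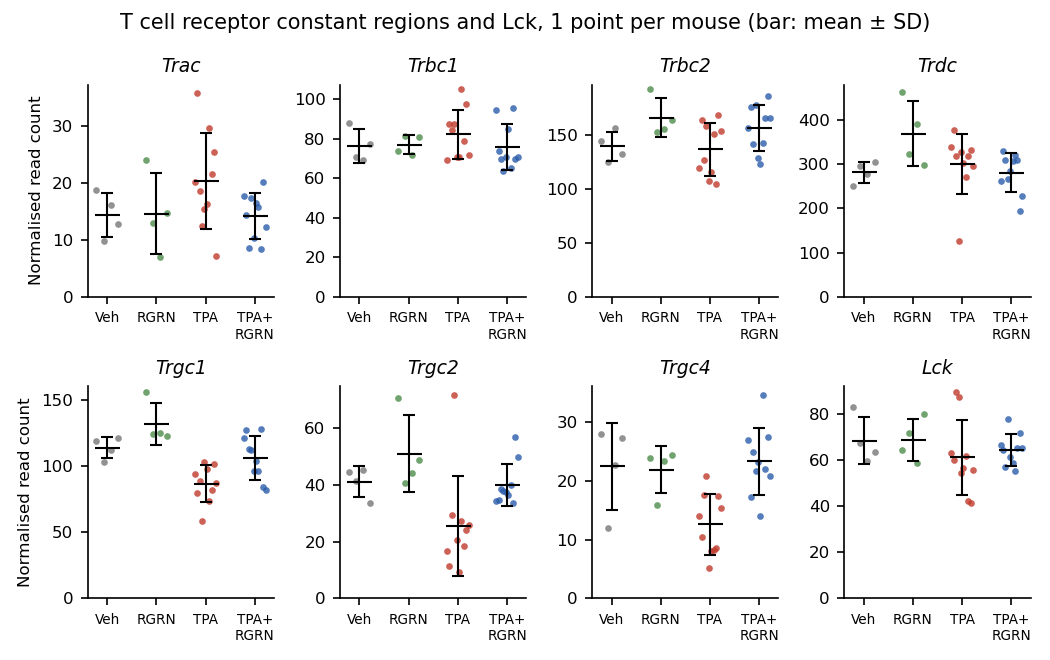
Normalised read count (y axis, from 0) of 7 T cell receptor constant region genes and Lck, 1 point per mouse, with bars for mean ± SD. Trgc1 and Trgc4 have lower means in TPA mice, though Trgc4 overlaps the vehicle mice and both overlap the TPA+RGRN-305 mice. Trbc1, Trbc2, Trdc and Lck overlap between all groups. In 1 TPA mouse Trdc is far below and Trgc2 far above the other TPA mice.

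Genes of T cell receptor signalling moved both ways. Of 25 tested, 10 were higher and 5 lower after TPA, where 31.6% of all genes were higher and 34.4% lower. With the inhibitor 4 were higher and 11 lower (33% and 32.6% of all genes). Lcp2, an adaptor also used by neutrophils and mast cells, rose by 1.91 on the log2 scale after TPA and was at -1.39 with the inhibitor. Sit1, an inhibitory adaptor, was at -0.99 after TPA, a call lost without any 1 of 8 libraries (Vehicle 2, 3 or 4 or TPA 1, 3, 5, 6 or 8). Lck, the kinase that binds the coreceptors, Zap70, which binds the zeta chain, and Lat, its adaptor, did not pass, at -0.15, -0.23 and -0.13, and of these Zap70 and Lat were named after their values were seen. Library totals would make all 3 of them lower after TPA (adjusted p = 0.0152, 0.0041 and 0.0114). The list's median was -0.04 after TPA.

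Among 16 other T cell surface genes tested, 9 were higher and 3 lower after TPA (31.6% and 34.4% of all genes). With the inhibitor 3 were higher and 9 lower (33% and 32.6% of all genes). Cd5, a receptor that dampens antigen receptor signals, fell by 1.91 on the log2 scale and was higher by 1.23 with the inhibitor. Slamf1, a receptor shared with other leukocytes, rose by 4.28. Il7r, the interleukin 7 receptor, rose by 1.76. Of 16 transcription factors of T cells, 7 were higher and 7 lower in each of the comparisons, with Ets1 at 1.60, Ikzf3 at 1.25, Tcf7 at 0.97 and Maf at -1.58 after TPA. Tcf7 was lower with the inhibitor, at -0.19 (SE 0.07, adjusted p = 0.0120), a call lost without the hair follicle libraries (adjusted p = 0.0513).

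The ligands of CD28, CTLA-4 and ICOS (Cd80, Cd86 and Icosl) rose with their receptors, and their list also held the ligands of PD-1. All 5 listed genes were higher after TPA (31.6% of all genes) and lower with the inhibitor (32.6% of all genes). Cd80 vehicle mice held 17.6, 17.4, 21.8 and 9.09 counts, while TPA mice ranged from 132 to 200.2 (median 169) and TPA+RGRN-305 mice from 23.1 to 54.7 (median 35.1). The log2 fold change of Cd80 was 3.36 (SE 0.21, adjusted p = 4.02e-15) after TPA and -2.26 (SE 0.13, adjusted p = 3.78e-16) with the inhibitor, and TPA mice did not overlap the other groups. Cd86 (2.14 and -1.45), the second ligand shared by CD28 and CTLA-4, and Icosl (0.83 and -0.68), the ligand of ICOS, moved in the same directions. Cd274 (2.66 and -1.92) and Pdcd1lg2 (1.86 and -1.73), which encode the ligands of PD-1, completed the list, and Cd274 also binds CD80. The median of the 5 listed genes was 2.14 after TPA and -1.73 with the inhibitor, against -0.03 and 0.02 over all genes.

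Il2 and the other chains of its receptor were higher after TPA, as Il2ra was, while the wider cytokine list moved both ways. Il2 itself held 2.07, 6.52, 4.73 and 4.54 counts in vehicle mice and ranged from 9.36 to 21.6 (median 13.6) in TPA and from 2.103 to 9.43 (median 6.68) in TPA+RGRN-305 mice. Its log2 fold change was 1.67 (SE 0.37, adjusted p = 1.62e-04) after TPA and -1.21 (SE 0.25, adjusted p = 7.28e-05) with the inhibitor. The beta chain Il2rb was at 1.88 (SE 0.12, adjusted p = 5.04e-15) and -1.51, and the common gamma chain Il2rg at 1.17 and -0.80. Of 12 genes of this list tested, 9 were higher and 3 lower after TPA (31.6% and 34.4% of all genes), and the reverse with the inhibitor. Cish, a feedback inhibitor induced by cytokine receptors, was at 2.95, Il4 at 1.27, and Il15, a cytokine that shares the beta and gamma chains, at -1.99. The other lower genes, outside the rule for naming, were Il7 at -0.91 and Stat5b at -0.40.

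**Figure D5:**
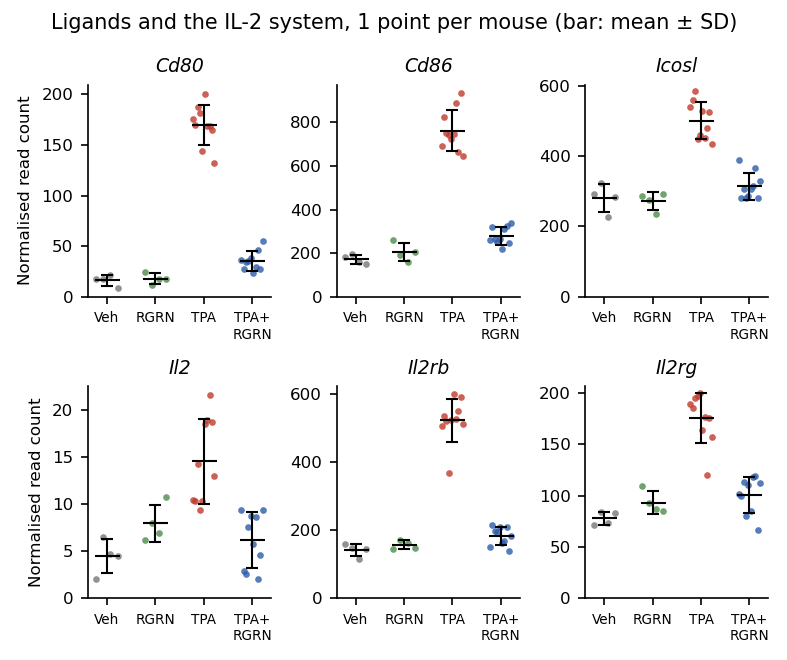
Normalised read count (y axis, from 0) of 3 ligands (Cd80, Cd86, Icosl), of Il2 and of the other chains of its receptor (Il2rb, Il2rg), 1 point per mouse, with bars for mean ± SD. For Cd80, Cd86, Icosl and Il2rb each TPA mouse is above all mice of the other groups, and Il2 stays under 22 counts in every mouse.

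Genes known to accompany Foxp3 in regulatory T cells were mostly higher. Of 21 tested, 14 were higher and 4 lower after TPA (31.6% and 34.4% of all genes). With the inhibitor 2 were higher and 16 lower (33% and 32.6% of all genes). The largest changes were those of Areg (6.56), Il10 (6.19), Tnfrsf9 (2.97) and Batf (2.42), and all are also used by other cells: Areg is made by keratinocytes and Il10 by macrophages. Among the 4 lower genes were Ccr4, a skin-homing chemokine receptor, at -2.15, and Ikzf2, which encodes the regulatory T cell factor Helios, at -1.01, both named after their values were seen. Of 7 inhibitory receptor genes 4 were higher after TPA and 1 lower, with Pdcd1 (PD-1) at 2.68, Tigit at 2.21, Havcr2 at 2.13 and Vsir at -0.83. With the inhibitor the same 4 genes were at -2.48, -1.74, -1.47 and 0.69. For RGRN-305 alone edgeR called no gene of any list described here. Tnfrsf9 was nearest to a call, at 1.02 (SE 0.21, adjusted p = 0.273), and was called by DESeq2, at 1.05 (SE 0.22, adjusted p = 0.0082). Its vehicle mice held 41.5, 32.6, 26.5 and 48.2 counts and its RGRN-305 mice 89.4, 91.6, 61.4 and 62.4, without overlap.

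Markers of other leukocytes were examined in the same groups, and the neutrophil genes moved furthest. Beside the counts that follow, 31.6% of all genes were higher and 34.4% lower after TPA, and 32.6% were lower with the inhibitor. Counts near these shares do not set a list apart. All 7 neutrophil genes tested were higher after TPA and lower with the inhibitor, and their summed level was 125 to 257 counts in vehicle, 4495 to 7201 in TPA and 217 to 1028 in TPA+RGRN-305 mice, with Ly6g and Cxcr1 at 0 in all vehicle mice. Of 12 dendritic and Langerhans cell genes, 6 were higher and 3 lower after TPA, with Cd207 (langerin) at 3.07, Epcam, also an epithelial gene, at 2.01 and Xcr1, a marker of cross-presenting dendritic cells with few counts, at -2.15. The list had sums of 20878 to 23668 counts in vehicle and 31099 to 42216 in TPA mice, and without Epcam, left out after its values were seen, of 18116 to 20803 and 20437 to 29811. Of 12 macrophage genes 4 were higher and 3 lower, with sums of 10168 to 11601 in vehicle and 9498 to 12576 in TPA mice, an order kept for the sums that follow. Of 7 genes of group 2 innate lymphoid cells, which can carry ICOS and CD25 without a T cell receptor, 4 were higher and 2 lower, with sums of 12207 to 14198 and 13283 to 16633. Their log2 fold changes ran from -1.77 to 4.80. The list shares Rora and Gata3 with the T cell transcription factors, so its sum does not follow these cells alone. Of 5 cytotoxic and natural killer cell genes tested 1 was higher and 1 lower, a count that fell to 1 gene in 10 of the fits without 1 library. Gzmb, a granzyme gene, rose by 6.11. The sums of the cytotoxic and natural killer list were 239.9 to 289 and 386 to 911, and without Gzmb, left out after its values were seen, 231 to 287 and 174 to 328, so the rise of the sum was that of Gzmb. Of 11 genes of skin gamma delta T cells 4 were higher and 1 lower, with Il17f at 2.49 and sums of 1116 to 1227 and 1333 to 1770.4. Trdc, the delta chain gene in this list, did not pass, and the rise of the sum was not traced to single genes. Of 8 mast cell genes 1 was higher and 6 lower. B cell genes were near absent apart from Blnk, the 1 gene of 3 tested that was higher, with Ms4a1 at no more than 4 raw counts and Cd79a at no more than 10 raw counts in any library. Of 10 structural genes of ear skin 2 were higher and 1 lower, and of 7 genes of growing hair follicles 1 was higher. The part of these cells in the changes of Icos, Ctla4, Il2ra and the CD3 subunits was not tested.

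Within groups the members varied largely apart. After each group's mean was subtracted over the 28 mice, the highest Pearson correlations among the 45 pairs of members were 0.59 for Foxp3 with Ctla4 and 0.58 for Icos with Il2ra, and Cd3d and Cd3g had -0.02. The 8 genes most like the mean of Cd3d, Cd3e and Cd3g had r from 0.64 to 0.71 (Zbtb45, Snap47, Gtse1, Babam1, Mtag2, Ppil1, Glmp and P2rx1). Foxp3 was most like Ms4a4a, Gm15464, Apaf1, Slc18b1 and Cd163 (0.66 to 0.71), Il2ra most like Ston2, Pstpip2, Itgb6, Trak2 and Ibtk (0.76 to 0.81), and the genes most like Cd4 included C1qtnf1, Pianp, Timp2 and Entpd2 (0.77 to 0.85). The genes named as most like a member or the CD3 mean were picked as the highest of many correlations over 28 mice. How high unrelated genes would reach by such picking was not measured. These values therefore do not show that the genes named vary together with the members. They describe variation between mice, which share library depth and tissue make-up, and carry no test.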

How the data were processed

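Whole ear skin of 28 mice was profiled by RNA sequencing with a directional library kit. Per the labels and the study's methods, the deposited values are raw counts per gene of uniquely aligned, unambiguous reads on GRCm39. The authors made them with the R package Subread (2.10.3 in the submitters' processing notes). Whether strand was used is not given in the sources used here. The table lists 55414 genes, of which 665 (0.0567% of counts) did not match the GENCODE annotation used here. Counts of all 28 libraries were scaled by TMM, filtered (filterByExpr, minimum count 10, minimum total 15) and fitted in edgeR 4.0.16 (R 4.3.3) by the quasi-likelihood test with a term for each group, with Benjamini-Hochberg adjustment over 18991 genes. The call threshold was an adjusted p of 0.05, and a stricter rule also asked a log2 fold change over 1 and a mean over 50 counts. The interaction compared the TPA change with and without RGRN-305. The members, gene lists and promoters were chosen with earlier results of these data known. Within a list, up to 4 genes with the largest called change in TPA against vehicle or in TPA+RGRN-305 against TPA were named. Also named were Trac, Trbc1, Trbc2, Lck, Cd8a, Cd80, Cd86, Icosl, Il2, Il2rb, Il2rg, Cd79a and Ms4a1 whatever their values, and others where the text says so. Some genes that this rule names are not reported here. Likeness is a Pearson correlation of log2 CPM (prior count 2). The lists cover receptor chains, signalling, surface and transcription factor genes, regulatory T cell partners, ligands, the interleukin 2 system, inhibitory receptors, and markers of gamma delta, cytotoxic, innate lymphoid, B, dendritic, macrophage, neutrophil and mast cells, ear structure and growing hair follicles. Alternatives were RLE scaling, library totals, no filter, DESeq2 1.42.0, only the groups compared, a replicate block, leaving out 3 hair follicle libraries, the library low in Xist or each library in turn, and the stricter rule. The code was tested on simulated data. Tables and plots used Python 3.11.15, pandas 2.3.3, NumPy 2.4.6 and Matplotlib 3.10.9. No label says that mice were separate litters or days, so p-values measure the spread between these mice.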

Additional observations from a re-analysis of the deposited data

Results flagged for a closer look

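Of 40 sets of mice examined (10 genes in 4 groups), 5 held a mouse that stood apart from the rest of its group, where chance gives about 1 in 20 sets. Cd3d was at 52.1 normalised counts in TPA 6, with the next TPA mouse at 37.5, and Cd3e was at 132 in Vehicle 4, with the next at 159.8. Cd4 was at 141 in Vehicle 2 (next 122) and at 148 in TPA 1 (next 118). Ctla4 was at 139 in TPA 9, with the next at 89.7.

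The TPA change differed with and without RGRN-305, by the interaction test in edgeR, for 5 of the 10 members. The same test called 50.8% of all genes, so this count does not set the members apart. The log2 interaction was -1.71 (SE 0.29, adjusted p = 1.16e-05) for Icos, -1.43 (SE 0.29, adjusted p = 1.24e-04) for Il2ra, -1.20 (SE 0.31, adjusted p = 0.0017) for Ctla4, 0.38 (SE 0.14, adjusted p = 0.0216) for Cd247 and 0.34 (SE 0.13, adjusted p = 0.0265) for Cd3g. The call of Cd3g was lost with no filter on low counts (adjusted p = 0.0516), with the replicate block (0.0528) and without Vehicle 3, Vehicle 4 or RGRN-305 4, and that of Cd247 without Vehicle 3.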

How the results depend on the processing

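Of the 60 member results (10 genes in 6 comparisons), 57 kept their direction and side of the threshold under DESeq2, 58 under RLE scaling, 50 with library totals alone and 52 with no filter on low counts. Under the stricter rule the count of members called was 2 for TPA against vehicle, 2 for TPA+RGRN-305 against TPA, 2 for the interaction, and 0 for TPA+RGRN-305 against RGRN-305 and against vehicle. Against RGRN-305 it was 1 with no filter. Against vehicle it was 0 under RLE scaling, with no filter, under DESeq2, with only the groups compared, and without the hair follicle libraries or the library low in Xist. Leaving out each library gave 8 to 9 members for TPA against vehicle, 7 to 9 for TPA+RGRN-305 against TPA, 0 to 0 for RGRN-305 alone, 1 to 5 for TPA+RGRN-305 against RGRN-305, 0 to 1 against vehicle and 3 to 5 for the interaction (3 without Vehicle 3). The cause of these moves was not tested.

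Replicate numbers are shared between groups, and no label says that they pair the mice. Correlations of same-numbered deviations ran from -0.11 to 0.20. Such values cannot show that the numbers hold no pairing or order of experiments, so the block was fitted as an alternative. With the replicate number as a block, 52 of the 60 results were unchanged, the count was 0 for TPA+RGRN-305 against RGRN-305 and against vehicle, and the fall of Cd3e after TPA was -0.25 (adjusted p = 0.0552). Under the block Trbc2 (0.017), Lck (0.0026) and Lat (0.018) turned positive for TPA against vehicle, and Cd3g was 0.026 in TPA+RGRN-305 against vehicle.

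Signs turned otherwise in values near 0. Cd3g in TPA+RGRN-305 against vehicle was 0.0062 under RLE, 0.0093 with no filter and 0.0041 under DESeq2, and Il2ra was -0.026 with library totals and -0.020 without the hair follicle libraries. With library totals the interaction of Cd28 was 0.24, TPA against vehicle gave -0.18 for Trbc1 and -0.20 for Trdc, and TPA+RGRN-305 against TPA gave 0.14 for Trbc1, 0.16 for Trdc and 0.067 for Tcf7. Without 1 library, RGRN-305 alone ranged from -0.032 to 0.21 for Cd3d and -0.12 to 0.30 for Foxp3, and Cd4 in TPA+RGRN-305 against RGRN-305 from -0.021 to 0.085. Against vehicle, TPA+RGRN-305 ranged from -0.10 to 0.086 for Cd3g, -0.018 to 0.41 for Cd28 and -0.057 to 0.046 for Il2ra. The interaction ranged from -0.022 to 0.093 for Cd3e and -0.30 to 0.20 for Cd28, and Trbc2 after TPA from -0.080 to 0.028. Among receptor chains with the inhibitor, Trac was called without the hair follicle libraries (adjusted p = 0.0477) and Trbc2 without the library low in Xist (0.0375). Foxp3 rests on 5 to 17 counts per mouse, and its SE after TPA was the largest of the members.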

Other observations

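In TPA 4, the delta chain genes of the T cell receptor were far below those of the other TPA mice, a pattern seen after the values were read. Trdc was at 126 normalised counts, against a median of 318 over the 10 TPA mice, and Trdv4, a variable segment used by the gamma delta T cells of mouse epidermis, was at 10.4, where the other TPA mice ranged from 45.0 to 90.1. The gamma chain genes of the same mouse went both ways. Trgc2 was at 71.8 and Trgc4 at 20.8, each the highest of the TPA mice, while Trgc1 was at 58.3, the lowest of them. The CD3 subunits of that mouse did not fall with the delta chain. Cd3g was at 158, the highest of the TPA mice, Cd3e at 132, Cd3d at 37.5 and Cd247 at 88.4, all within the range of the other TPA mice or above it.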
